A study of Mus musculus with 12 samples.

Results

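Isolated CTCF sites of the mouse liver are described here: sites that lay 150 kb or more from the next CTCF site on either side. The 6 peak lists, pooled and joined wherever peaks shared 1 bp or more, gave 76061 sites. Of these, 44909 had a peak in each of the 3 fed livers and are called fed sites below. A fed site was isolated when its midpoint was at least 150 kb from the midpoint of the nearest other fed site on both sides, and 955 fed sites (2.13%) met this rule. A side with no further fed site up to the chromosome end, which concerned 7 sites, counted as far. The sites were thus chosen by the presence and position of peaks in the fed lists, while peak scores and the gene annotation did not enter. Starved peaks and peak extents entered only through the merging, which sets the midpoints between which distance was measured.

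The livers came from wild-type male C57BL6/Ncrl mice, 3 to 4 months old and kept on normal chow. The starved mice had gone without food for 24 h and were sampled at ZT13 (zeitgeber time, in hours after lights on), and the fed mice had eaten at will and were sampled at ZT16. Each state had 3 ChIP-seq libraries made with the same CTCF antibody from snap-frozen whole liver. Collection time differed together with feeding, so their effects cannot be told apart, and in whole liver neither can CTCF bound in fewer cells and less CTCF bound per cell. The labels do not state that each library is a mouse of its own, so spread and p-values refer to libraries and may be technical.

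CTCF is a zinc finger protein that binds a long, conserved DNA motif. At many of its sites it halts cohesin, the ring complex that extrudes chromatin loops, so that loop anchors and the borders of contact domains often carry CTCF. In mammalian genomes CTCF sites are frequent in gene-rich DNA and rare in gene deserts, the long gene-poor stretches that often flank developmental regulators or lie among neuronal and sensory receptor genes.

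DNA could be read only at the few isolated sites that touched a promoter window, and these do not stand for isolated sites at large. Of the 955 isolated sites, 34 (3.56%) overlapped at least 1 of the RefSeq promoter windows (250 bases before to 50 after a gene start, GRCm38.p6), against 4719 (10.7%) of the 43954 other fed sites. Both strands of each window were searched for AGNNGGCGC, a strict form of the right part of the CTCF core motif with 2 free bases, whose reverse complement is GCGCCNNCT. Only exact matches to these letters were counted, so a window without a match may still hold another form of the motif. A match was present in 10 (22.7%, exact 95% interval 11.5 to 37.8) of the 44 windows touched by isolated sites, in 1147 (19.8%) of the 5781 windows touched by other fed sites and in 2373 (7.23%) of all 32817 windows. Several of the 44 windows belong to the same site. The Fmr1 and Fmr1os windows have their match outside the isolated site, so the share of windows is not a rate of motifs in isolated sites. The windows below, 1 for each of 6 sites, are those with a match that lay inside the isolated site itself, printed 5′ to 3′ on the strand of the gene with the matches in capitals.
Cpne8 (copine, chr15:90679339-90679638, minus strand): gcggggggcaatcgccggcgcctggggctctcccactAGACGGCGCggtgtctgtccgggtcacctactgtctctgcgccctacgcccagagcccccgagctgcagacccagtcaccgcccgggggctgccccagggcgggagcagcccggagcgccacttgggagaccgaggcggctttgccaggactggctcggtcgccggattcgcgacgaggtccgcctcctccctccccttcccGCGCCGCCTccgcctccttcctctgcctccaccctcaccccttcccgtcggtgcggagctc
Gm46796 (chr3:6106767-6107066, plus strand): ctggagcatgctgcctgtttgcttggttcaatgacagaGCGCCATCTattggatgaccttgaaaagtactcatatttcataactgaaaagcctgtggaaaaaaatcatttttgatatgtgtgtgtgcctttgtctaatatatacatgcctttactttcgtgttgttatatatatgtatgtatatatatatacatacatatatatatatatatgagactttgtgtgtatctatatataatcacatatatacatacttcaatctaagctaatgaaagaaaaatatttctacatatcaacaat
Gm40604 (chr10:15760024-15760323, minus strand): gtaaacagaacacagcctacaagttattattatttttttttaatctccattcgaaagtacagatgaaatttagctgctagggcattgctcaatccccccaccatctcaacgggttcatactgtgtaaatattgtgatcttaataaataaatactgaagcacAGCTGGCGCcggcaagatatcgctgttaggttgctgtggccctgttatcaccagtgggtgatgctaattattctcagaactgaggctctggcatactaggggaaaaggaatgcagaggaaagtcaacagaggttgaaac
Fbxl7 (F-box protein, chr15:26895515-26895814, minus strand): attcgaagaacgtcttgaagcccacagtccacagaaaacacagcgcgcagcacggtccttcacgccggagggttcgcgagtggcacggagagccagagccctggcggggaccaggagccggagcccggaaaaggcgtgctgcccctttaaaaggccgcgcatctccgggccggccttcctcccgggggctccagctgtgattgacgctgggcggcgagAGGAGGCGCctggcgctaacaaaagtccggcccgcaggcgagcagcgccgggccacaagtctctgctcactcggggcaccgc
Ctnna2 (neuronal alpha-catenin, chr6:77979618-77979917, minus strand): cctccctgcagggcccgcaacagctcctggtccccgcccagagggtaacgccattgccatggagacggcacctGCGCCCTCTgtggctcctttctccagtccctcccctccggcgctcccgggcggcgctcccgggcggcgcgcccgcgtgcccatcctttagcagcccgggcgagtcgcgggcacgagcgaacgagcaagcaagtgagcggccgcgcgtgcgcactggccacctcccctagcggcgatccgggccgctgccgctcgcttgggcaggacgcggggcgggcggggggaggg
Zfp558 (zinc finger protein, chr9:18473510-18473809, minus strand): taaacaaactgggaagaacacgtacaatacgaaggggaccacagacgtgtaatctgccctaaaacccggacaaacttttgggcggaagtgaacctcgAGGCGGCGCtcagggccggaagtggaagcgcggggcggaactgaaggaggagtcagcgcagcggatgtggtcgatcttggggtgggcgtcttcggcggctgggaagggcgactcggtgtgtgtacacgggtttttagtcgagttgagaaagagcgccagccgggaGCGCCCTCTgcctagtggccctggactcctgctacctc
Cpne8 and Zfp558 held 2 matches each, 1 on either strand. The Cpne8 and Gm46796 sites were called in all 3 starved livers, the Fbxl7 site in 1 and the Gm40604, Ctnna2 and Zfp558 sites in 0. Their mean percentiles of peak score in the fed lists, where 100 is the best peak, ran from 97.1 at Cpne8 and 58.4 at Gm46796 down to 27.6 at Zfp558. A match is a description and does not show which bases CTCF contacted.

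Promoters without such a match were also touched. The windows of Dsel, an enzyme related to dermatan sulfate epimerase, and of Cxcr4, a chemokine receptor, are shown for comparison, since both sites were called in all 6 libraries although these letters are not in the window.
Dsel (chr1:111864869-111865168, minus strand): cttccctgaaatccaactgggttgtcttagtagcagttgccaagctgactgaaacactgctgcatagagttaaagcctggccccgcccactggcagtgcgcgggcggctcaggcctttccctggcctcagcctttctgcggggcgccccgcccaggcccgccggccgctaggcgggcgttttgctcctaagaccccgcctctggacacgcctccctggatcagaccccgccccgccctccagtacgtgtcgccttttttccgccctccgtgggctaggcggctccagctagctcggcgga
Cxcr4 (chr1:128592250-128592549, minus strand): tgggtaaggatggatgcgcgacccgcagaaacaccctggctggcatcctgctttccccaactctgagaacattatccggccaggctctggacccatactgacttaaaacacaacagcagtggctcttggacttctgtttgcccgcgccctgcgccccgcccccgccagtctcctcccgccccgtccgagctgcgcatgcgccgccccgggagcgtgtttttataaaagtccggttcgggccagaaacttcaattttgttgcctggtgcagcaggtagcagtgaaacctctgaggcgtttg
The Dsel site extended past its window on one side and the Cxcr4 site on the other, and the DNA outside the windows was not analysed here.

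The lists from which the sites were drawn differed in length, from 23926 to 30752 peaks in starved livers and from 49030 to 74950 in fed livers. The number of reads behind each list is unknown. Between 1.48 and 1.65% of the starved peaks and between 1.28 and 1.97% of the fed peaks fell on isolated sites. The score of a peak is the authors' own value, and is used here only as a percentile within its own list (100 is the best peak).

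Isolated sites were far from their neighbours by construction, and the distances describe how far. The gap to the nearer fed site had a median of 225 kb (quartiles 177 and 333 kb) and reached 2480 kb, and the farther gap had a median of 476 kb. For the other fed sites the nearer gap had a median of 8.86 kb. The sites closest to the limit were 150.2 kb (near Gm7135), 150.2 kb (in Rfx3) and 150.3 kb (near Pabpc1l2a) from their nearer neighbour, and the first sites outside it 149.8 kb (near Rab32) and 149.6 kb (near Adgrl4 and Yipf5). Isolated sites often followed one another: 591 (61.9%) had another isolated site as a direct neighbour. The longest such run held 8 sites over 3.58 Mb of chromosome 3 (3751446 to 7332283), and the next held 7 sites over 2.80 Mb of chromosome 2 (85561046 to 88356768) in a region of olfactory receptor genes.

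Isolation held against fed sites and less strictly against every peak. Within 150 kb of the midpoint, 486 isolated sites (50.9%) had no other merged site of any library, 281 had 1 and 188 had 2 to 8. These lesser sites had a peak in fewer than 3 fed lists, and 225 isolated sites had one with a peak in 2 of them. Only 1 isolated site had a site of the starved lists alone in its surroundings. Judged by the peaks of a single list, the called isolated sites stood alone within 150 kb in 99.3 to 99.7% of cases in the starved libraries, in 77.5% in fed 1, in 93.8% in fed 2 and in 53.0% in fed 3, the longest list.

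Chromosomes with few fed sites per Mb tended to hold the larger shares of isolated ones, which a rule on spacing largely sets. On the X chromosome 67 of 1058 fed sites (6.33%, exact 95% interval 4.94 to 7.97) were isolated, at a density of 6.46 fed sites per Mb. Males carry a single X, and the part of this in the density was not tested. Chromosome 3 had 84 of 2134 (3.94%) at 13.7 sites per Mb. The gene-dense chromosomes 11 and 19 had 32 of 3363 (0.952%) and 14 of 1461 (0.958%), at 28.3 and 25.1 sites per Mb. Chromosome Y had 19 fed sites, of which 2 were isolated. Sites are not replicates, so these intervals, like all intervals given here for shares, cover counting error only.

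**Figure D1:**
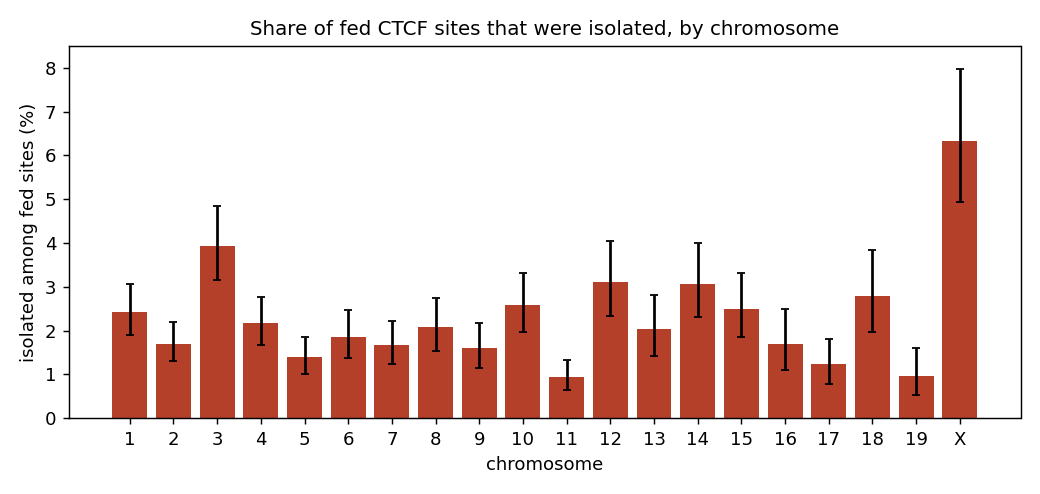
Bars show the share of fed CTCF sites that were isolated on each chromosome, in percent, with exact 95% binomial intervals, and chromosome Y is left out. The X chromosome stands highest at 6.33% and chromosomes 11 and 19 lowest at 0.952 and 0.958%.

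Most isolated sites lay outside genes, and those inside lay in long ones. Of the 955 isolated sites, 298 (31.2%, 28.3 to 34.2) had their midpoint in a protein-coding gene, against 24396 (55.5%) of the 43954 other fed sites. Within 5 kb of an end of a protein-coding gene lay 98 isolated sites (10.3%) and 35.8% of the other sites. More than 100 kb from any protein-coding gene lay 443 isolated sites (46.4%) and 4.95% of the others, and more than 500 kb away lay 135 (14.1%) and 0.346%. The gene around an isolated site had a median length of 468 kb, against 65.3 kb for other fed sites. Of the isolated sites in genes, 46.0% were in genes longer than 500 kb, against 5.13% of the other sites in genes. Long spacing and low gene density go together in the genome, so these shares describe the setting and are no test of CTCF.

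**Figure D2:**
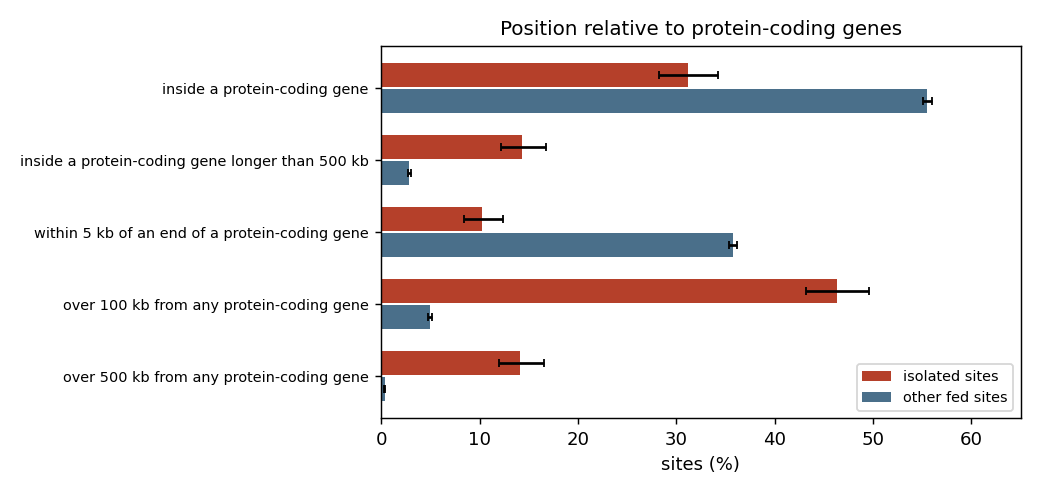
Bars give the share of isolated sites (red, above) and other fed sites (blue, below) in each position relative to RefSeq protein-coding genes, in percent, with exact 95% binomial intervals. Isolated sites were less often in genes (31.2% against 55.5%) and more often over 100 kb from one (46.4% against 4.95%).

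Long genes, among them genes of neuronal adhesion and synapses, were a frequent setting of isolated sites. In all, 244 protein-coding genes held one, and 44 of them held 2 or more, with 98 sites among them. Pcdh15, a protocadherin of the sensory hair bundle, held 5 isolated sites over its 1554 kb. Lsamp, an adhesion molecule of the IgLON family, and Macrod2, an ADP-ribose hydrolase, held 4 each, and Csmd1, the postsynaptic scaffold gene Dlg2 and Lingo2 held 3 each. Protein-coding genes longer than 500 kb, of any kind, held 14.3% of isolated and 2.85% of other fed sites. A list of 68 long genes, made for neuronal adhesion and synapses, also included genes of other kinds such as Macrod2, Dmd, Sgcd and Galntl6. It had 71 isolated sites inside or within 100 kb (7.43% of all isolated sites, 61 of them inside the gene) at 39 genes, while 0.877% of all fed sites lay there. For 52 neuronal channel and receptor genes it was 20 isolated sites (2.09%, against 0.432% of fed sites), and for 13 classical cadherin genes 7 (0.733% against 0.122%). These lists were drawn up by hand with gene deserts in mind, so their counts are a description.

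Isolated sites also lay near sensory receptor genes and developmental regulators, in larger shares than all fed sites, and these counts too are a description. Near 1428 olfactory receptor genes lay 22 isolated sites (2.30%, against 1.12% of fed sites), the best of them at a mean fed percentile of 88.7 beside Olfr996. Near 399 vomeronasal and taste receptor genes lay 17 (1.78% against 0.372%). These families contain many near-identical copies, and the sources used here do not give how reads with several matches were treated. Its part in these gaps was not tested. Around 72 developmental transcription factor genes lay 13 isolated sites (1.36% against 0.757%), among them sites at Meis2, Irx3 and Pou3f2.

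Liver genes were rarely the setting of an isolated site. Of 60 genes of fasting metabolism, 0 had an isolated site inside or within 100 kb (0 of 955 sites, which allows a share of up to 0.314%), although 713 fed sites (1.59%) lay there. The hepatocyte markers had 0 isolated and 118 fed sites (0.263%) in the same window, a share within what a count of 0 allows. Among secreted liver protein genes the count was 2 (0.209% against 0.561% of fed sites), both in the cluster of major urinary proteins, near Mup2 and Mup14. Among drug and hormone conjugation clusters it was 3 (0.314% against 0.568%), in Sult2a1, in Cyp2c39 and in the pseudogene Cyp3a63-ps, again families of similar copies. The hepatocyte transcription factor genes had 1 (0.105% against 0.503% of fed sites), at 92.0 kb from Hnf4g, a nuclear receptor related to Hnf4a. Among other cell types of the liver, the markers of lymphocytes, cholangiocytes, endothelium and Kupffer cells with macrophages had 0 isolated sites. Of all fed sites, 0.169, 0.0935, 0.174 and 0.131% lay there, each share within what a count of 0 allows. For stellate cells and fibroblasts it was 2 (0.209% against 0.134%), in Reln and near Hhip. The counts for these cell types therefore do not show that isolated sites were rare at their markers.

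Fewer isolated sites than other fed sites were called after starvation, in each of the 3 starved livers. Starved 1 had a peak at 453 isolated sites (47.4%), starved 2 at 375 (39.3%) and starved 3 at 489 (51.2%). For the other fed sites the shares were 65.3% in starved 1, 51.9% in starved 2 and 63.9% in starved 3, and over all fed sites together they were 64.9, 51.6 and 63.6%. Isolated sites averaged 46.0 ± 6.10% and other fed sites 60.3 ± 7.35% (SD, n = 3 libraries), a difference of −14.4 ± 2.98 points with the same sign in 3 of 3 libraries. The difference was −17.8 points in starved 1, −12.6 in starved 2 and −12.7 in starved 3.

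Counted by site, 554 isolated sites (58.0%, 54.8 to 61.2) had a call in 1 or more starved libraries, against 71.2% of other fed sites and 70.9% of all fed sites. In all 3 starved libraries it was 335 (35.1%, 32.0 to 38.2), against 49.6% of others and 49.3% of all. No starved peak was found at 401 isolated sites (42.0%, 38.8 to 45.2), against 28.8% of others and 29.1% of all. Isolated sites called in 1 starved library were mostly those of starved 3 (66, 6.91%) and starved 1 (52, 5.45%), with 8 (0.838%) for starved 2, the shortest list. Starved 2 was also the rarest among other fed sites, with 4.22% for starved 3, 6.11% for starved 1 and 0.567% for starved 2. On the X chromosome 14 of 67 isolated sites (20.9%) were called in all 3 starved libraries, against 44.0% of its other fed sites.

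Isolated sites also scored lower in the fed lists, and the starved calls followed that score. Their mean fed percentile had a median of 54.4 (range 8.07 to 98.0), against 61.2 for other fed sites. Strong sites were scarce among them: 21 (2.20%) had a mean fed percentile of 90 or more, against 12.6% of the others, while 2.51% were under 20, against 3.98%. Isolated sites called in all 3 starved livers had a median fed percentile of 74.7, those called in 2 had 60.1, those in 1 had 52.7 and those in none 37.1. Each of the 238 isolated sites at a fed percentile of 70 or more had a starved peak. So did every other fed site in that range (5554 from 70 to 80, 6096 from 80 to 90 and 5530 from 90 upwards).

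Within bins of fed percentile the difference varied with the bin. Between 30 and 40, 11 of 127 isolated sites (8.66%, 4.40 to 15.0) were called in 1 or more starved libraries, against 24.1% of 5063 other fed sites. Between 50 and 60 it was 95 of 148 (64.2%, 55.9 to 71.9) against 82.4%. Between 60 and 70, 84 of 153 (54.9%, 46.7 to 62.9) were called in all 3 starved libraries, against 67.2%. From 70 upwards the 2 kinds of site were close, with 96.9% of isolated and 97.4% of other sites between 70 and 80 called in all 3. Averaged over bins of 10 points, weighted by the isolated sites in each, the difference in calls per starved library was −6.46 ± 4.52 points (SD, n = 3), against −14.4 points without bins, with −11.2 in starved 1, −2.26 in starved 2 and −5.87 in starved 3.

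**Figure D3:**
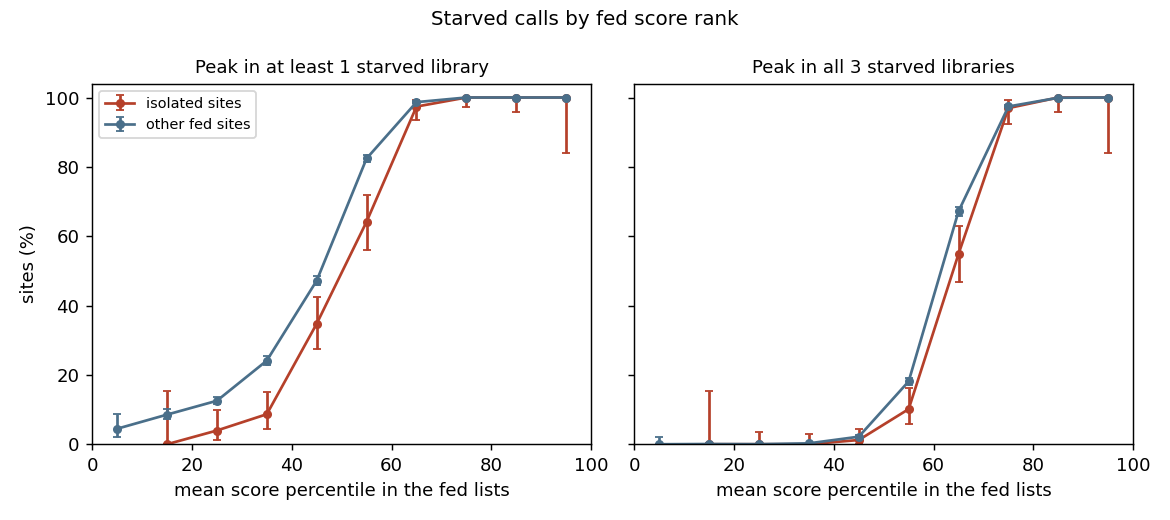
The share of isolated sites (red) and other fed sites (blue) with a peak in at least 1 (left) or in all 3 starved libraries (right) is plotted in percent against their mean score percentile in the fed lists, in bins of 10 points with at least 20 sites and exact 95% intervals. The curves separate most between 30 and 60 on the left and meet above 70.

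Lists of equal length gave a comparison in which fed libraries could also miss a site. Each list was cut to its 23926 highest-scored peaks, since the shortest held no more. Isolated sites were then called at 34.5% in starved 1, 39.3% in starved 2 and 39.8% in starved 3, against 42.7% in fed 1, 43.8% in fed 2 and 42.3% in fed 3. Every starved value lay below every fed value, although both kinds of site had been required to have a peak in the full fed lists, so the fed shares are not independent of that choice. Other fed sites ranged only from 51.9 to 52.5% in starved and from 52.9 to 53.4% in fed libraries, and all fed sites together stood at 52.1, 51.6 and 52% in starved and 52.9, 52.8 and 53.1% in fed libraries. The log2 ratio of the isolated to the other share was −0.47 ± 0.12 in starved and −0.31 ± 0.03 in fed livers (SD, n = 3 each), a difference of −0.16. A two-sided exact permutation test gave p = 0.1, the smallest that 3 against 3 libraries can give, so 0.05 could not be reached. Both kinds of site had to have a peak in each fed list, with no such demand on the starved lists. The test cannot separate starvation from that demand, so this contrast is a description. Starved 1 decided much of the size: without it the difference was −0.09, and without starved 2, whose loss lengthens the equal lists, it was −0.26.

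Compared at the same rank in 2 fed lists not including the library itself, the isolated sites were close to the others in fed livers and below them in starved livers. The difference in equal-length calls was −7.95 points in starved 1, −2.35 in starved 2 and −2.34 in starved 3, against −0.69 in fed 1, 1.17 in fed 2 and −1.21 in fed 3. The means were −4.21 ± 3.23 points in starved and −0.24 ± 1.25 in fed livers (SD, n = 3 each). The fed values again come from lists that the choice of sites had used, so this contrast is a description. This comparison was added after the data had been seen.

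**Figure D4:**
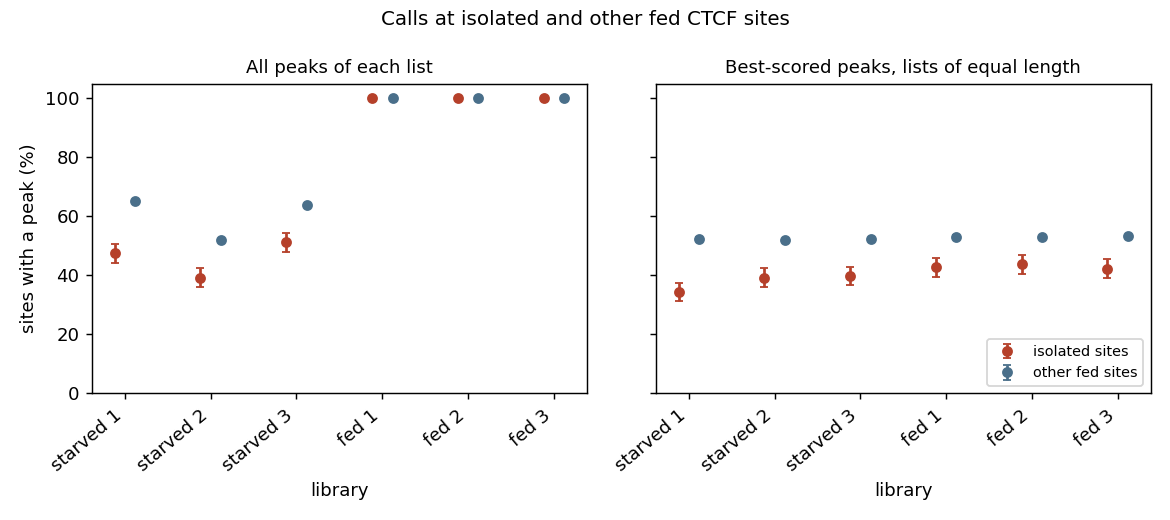
Points show the share of isolated sites (red) and other fed sites (blue) with a peak in each library, in percent with exact 95% intervals, for all peaks (left) and for lists of equal length (right). On the left the fed libraries are at 100% by the rule, and on the right the isolated sites lie at 34.5 to 39.8% in starved and 42.3 to 43.8% in fed libraries.

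The share of fed sites called in all 3 starved libraries was lower in each farther distance class from 5 kb onwards, below as well as above 150 kb. Of fed sites with a neighbour at 5 to 20 kb, 72.4% were called in 1 or more starved libraries and 51.1% in all 3. At 50 to 100 kb the shares were 67.7 and 45.0%, and at 100 to 150 kb 65.8 and 43.7%. Among isolated sites they were 60.8 and 39.7% for 355 sites at 150 to 200 kb, 58.2 and 35.8% for 316 at 200 to 300 kb, 58.4 and 32.6% for 178 at 300 to 500 kb, and 47.2 and 21.7% for 106 at 500 kb or more. The median fed percentile moved with distance, at 62.2 for 5 to 20 kb, 55.2 for 150 to 200 kb and 49.5 for 500 kb or more. Within the band of fed percentile from 40 to 60, where the medians stayed between 49.8 and 50.3, the share called in 1 or more starved libraries was 68.2% under 5 kb, 66.1% at 5 to 20 kb, 60.4% at 20 to 50 kb, 58.1% at 50 to 150 kb and 48.7% for isolated sites. In the same band the share in all 3 followed no steady order among other fed sites (9.99, 11.2, 9.27 and 8.98% in these classes) and was 5.45% for isolated sites. Between 60 and 80 the share in 1 or more was 98.1 to 99.7% for other and 98.6% for isolated sites, and from 80 upwards it was 100% in every class.

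**Figure D5:**
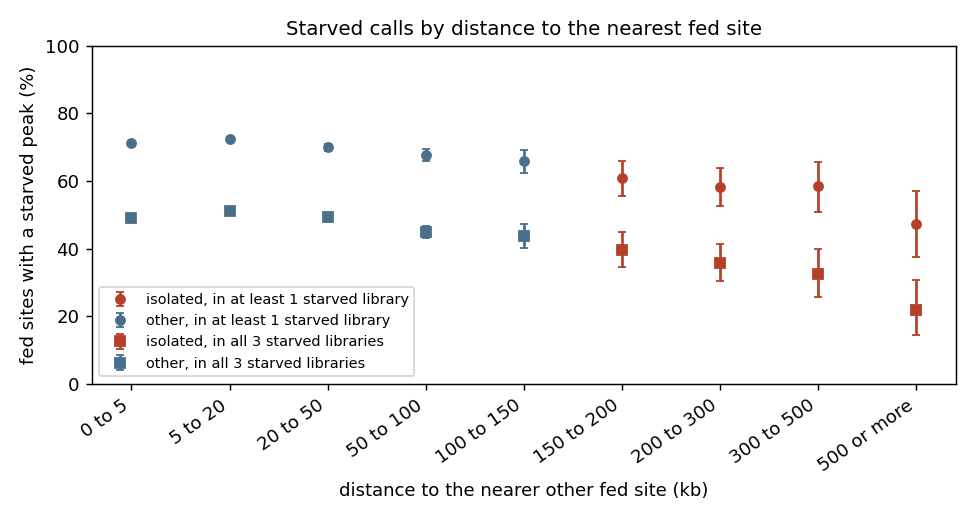
Circles (at least 1 starved library) and squares (all 3) give the share of fed sites with a starved peak, in percent with exact 95% intervals, by distance to the nearer other fed site in kb, with other fed sites in blue and isolated sites in red. The share in all 3 starved libraries is 51.1% at 5 to 20 kb and 21.7% at 500 kb or more.

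Peaks at isolated sites were narrower. Their median width was 276 bp in starved 1, 208 in starved 2 and 234 in starved 3, against 337 bp in fed 1, 298 in fed 2 and 382 in fed 3. At other fed sites the medians were 361, 248 and 294 bp in starved 1, 2 and 3, and 483, 403 and 583 bp in fed 1, 2 and 3. Isolated sites were the narrower kind in all 6 libraries. The log2 ratio of isolated to other width was −0.32 ± 0.07 in starved and −0.52 ± 0.09 in fed livers (SD, n = 3 each), a difference of 0.20 (two-sided exact permutation p = 0.1, the smallest possible). The fed medians cover all 955 isolated sites, the starved ones only those called there (453, 375 and 489 in starved 1, 2 and 3). The states were thus compared over different sites, and the test cannot tell a change in width from that. With lists cut to equal length before sites were formed the difference of 0.20 became −0.02. Width follows score, and between fed percentiles of 60 and 80 the fed medians were 498, 434.5 and 573.5 bp for isolated and 580, 496 and 669 bp for other sites. The starved medians in that band were 272, 197 and 233 bp for isolated and 317, 206 and 257 bp for other sites. Between 80 and 100 the fed medians were 679, 588 and 760 bp against 782, 713 and 886 bp. The starved ones there were 389, 262 and 321 bp against 515, 299 and 406 bp. The difference between the states was not tested within these bands. At sites called in all 6 libraries, the starved midpoint lay a median of 28.5 to 32.3 bp from the mean fed midpoint for isolated and 38.3 to 40.8 bp for other sites. These offsets were not compared at equal peak width, so they do not show steadier positions at isolated sites.

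Score ranks of called sites gave different answers in lists of equal and of full length. In equal-length lists, called isolated sites averaged 14.5 ± 0.29 percentile points below called other sites in starved livers and 14.7 ± 0.32 points below in fed livers (SD, n = 3 each). The difference between the states was 0.24 points (two-sided exact permutation p = 0.3), and its sign turned in 3 of the other settings tried. In the full lists isolated sites stood 12.4 ± 1.76 points below others in starved and 5.82 ± 0.96 points below in fed livers, a difference of −6.54 (exact permutation p = 0.1, the smallest possible), but those lists differ in length between the states. All sites had been required to have a fed peak, so the full fed ranks cover all 955 isolated sites. The starved ranks cover only the 453, 375 and 489 called in starved 1, 2 and 3. In lists of either length the states were compared over different sites, and neither test can tell a change in score from that.

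The best-scored isolated site lay inside Cacna1c (chr6:118922431-118923521), which encodes the pore of an L-type calcium channel, at percentiles of 98.2, 95.9 and 98.6 in starved 1, 2 and 3 and 96.5, 97.7 and 99.8 in fed 1, 2 and 3. The Cpne8 site, whose promoter is printed above (chr15:90679104-90680541), stood at 98.1, 97.4 and 99.8 in the starved and 98.2, 96.4 and 96.8 in the fed lists. The site 5.40 kb from Meis2, a homeobox transcription factor (chr2:115855421-115856313), stood at 96.6, 98.7 and 97.5 in the starved and 96.4, 93.7 and 94.7 in the fed lists. At Cacna1c and Cpne8 the percentiles of the 2 states overlapped and at Meis2 the starved ones lay just above, but percentiles of lists of unequal length do not measure a change. The other 7 of the 10 best lay 4.23 kb from Ddx1, an RNA helicase gene, in the beta-defensin gene Defb14, in the sialyltransferase gene St6galnac3, and far outside genes, at 168 kb from Samd12, 182 kb from Pik3c3, 251 kb from Gm12695 and 265 kb from Got2. Some of them ranked in the middle of a starved list, such as the Gm12695 site at percentiles of 75.7, 61.7 and 86.3 and the Got2 site at 74.9, 66.5 and 73.0 in starved 1, 2 and 3. All 10 were called in all 6 libraries, with mean fed percentiles of 92.4 to 98.0.

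At gene ends the best isolated sites after Cpne8, Ddx1 and Defb14 were those of Galnt18, the semaphorin gene Sema5a, the tetraspanin gene Tspan5, Abcg3, the homeobox gene Irx3, Rgs2, a regulator of G protein signalling, and Osr1, a zinc finger transcription factor. Their mean fed percentiles ran from 91.8 to 82.4, and each was called in all 3 starved livers. The Irx3 site (chr8:91797212-91798236) lay 0.787 kb from the end of the gene, at percentiles of 68.3, 61.4 and 63.2 in the starved and 84.7, 79.5 and 86.9 in the fed lists. As a group, the 39 isolated sites within 1 kb of a gene end had a median fed percentile of 45.7, and 9 of them (23.1%, 11.1 to 39.3) were called in all 3 starved libraries, against 42.7% of other fed sites in that position. For the 443 sites over 100 kb from genes the median fed percentile was 53.7, and 32.7% (28.4 to 37.3) were called in all 3, against 44.2% of other fed sites there.

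Long genes could hold isolated sites with and without starved calls. The starved lists were shorter and calls followed the fed percentile, so a missing call does not show a loss of CTCF. In Pcdh15 the best of 5 sites (chr10:74463804-74464568) was called in all 6 libraries, at percentiles of 40.6, 6.96 and 50.7 in the starved and 71.4, 66.0 and 76.8 in the fed lists, and the other 4 had no starved peak. In Lsamp 2 of 4 sites were called in all 3 starved libraries and 1 in none. The 3 Lingo2 sites, at mean fed percentiles of 27.6 to 50.6, were called in no starved library. Over the long neuronal adhesion and synapse genes, 28 of 71 isolated sites were called in all 3 starved libraries and 28 in none. These shares were 35.1% and 42.0% over all isolated sites, and 49.3% and 29.1% over all fed sites. Of the other fed sites at these genes, 156 of 323 were called in all 3. The best isolated site at these genes lay in Cntnap2, a neurexin family gene (chr6:45323224-45324099), at percentiles of 41.8, 48.2 and 73.6 in the starved and 88.6, 88.6 and 92.8 in the fed lists.

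The 5 best-scored isolated sites without a starved peak had mean fed percentiles of 59.8 to 63.1. They lay inside Dtna, which encodes a dystrobrevin, and inside Rit2, a neuronal small GTPase gene, and outside genes, at 20.4 kb from the homeobox gene Otx1, 350 kb from Elavl2, a neuronal RNA-binding protein gene, and 532 kb from Tm4sf1. The Elavl2 site (chr4:90860871-90861265) stood at percentiles of 55.3, 59.5 and 73.5 in fed 1, 2 and 3. At the developmental genes Sox11 and Etv1, the sites that touched the promoter window (fed percentiles 49.9 and 42.8) had no starved peak either.

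The most remote sites were seldom strong. The nearer gap was 1 Mb or more at 17 isolated sites, of which 6 had a peak in a starved library and 3 in all 3, where over all fed sites 70.9% and 49.3% did. The most remote lay 79.5 kb from Vmn1r66, a vomeronasal receptor gene (chr7:10354686-10355067), with fed neighbours 3055 and 2480 kb away, and was called in no starved library. Of the 10 most remote, 8 had no starved peak, where 42.0% of isolated and 29.1% of all fed sites had none. The exceptions were a site in Mdga2, a neuronal adhesion gene (chr12:66853046-66853825), at percentiles of 34.9, 23.8 and 32.8 in the starved and 62.7, 63.0 and 76.2 in the fed lists, and a site 982 kb from Csmd3 that was called in 2 starved libraries. The site in Cdh8, a cadherin gene (chr8:99051413-99051696), 2733 and 1721 kb from its neighbours, stood at 41.2, 22.5 and 48.5 in the fed lists alone.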

How the data were processed

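CTCF ChIP-seq peak lists of 3 starved and 3 fed mouse livers were used, and groups and replicate numbers came from the sample titles. The deposited lists hold 1 score per peak, the authors' own value, which the sources do not define further. There was 1 list per library. The submitters' processing notes name the build mm10 and, in no stated role, BWA 0.7.5a, bedtools 2.17, SAMtools, FastQC, HOMER and MACS2. The input libraries were not analysed here, and read depth is unknown.

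Peaks overlapping by at least 1 bp were merged, and isolation was measured between midpoints. A site's percentile in a list is that of its best-scored peak. Gene positions and promoter windows came from RefSeq (GRCm38.p6, the same assembly as mm10, of C57BL/6J), with 21887 protein-coding genes. This gene table has no exons. Shares have exact (Clopper-Pearson) 95% intervals, and groups were compared by two-sided exact permutation over 20 labellings.

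The members and the 16 gene lists were chosen with earlier results of these data known. Named sites were the 10 best-scored, the 10 most remote, the 5 best without a starved peak, the 10 best within 5 kb of gene ends, up to 4 per gene list, and those next to the limit. The promoter examples and long genes were added after their values were seen, and not every site that the rule names is printed. The promoter motif took the place of a longer form of it after the matches of that form had been seen. Alternatives were other distance limits, keep rules, merging, score limits, list lengths and chromosomes, a replicate block, leaving out each library, and rank bins, the last chosen after seeing the data. The steps were tested on simulated lists. Scripts ran in Python 3.11.15 (scipy 1.17.1, numpy 2.4.6, pandas 2.3.3, matplotlib 3.10.9).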

Additional observations from a re-analysis of the deposited data

How the results depend on the processing

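Averaged over the starved libraries, the lower share of starved calls at isolated sites kept its sign under 16 other settings and within rank bins, but its size of −14.4 points did not. It was −10.8 with a 100 kb limit, −19.5 with peaks at or above the median score, −4.71 with equal-length lists before merging, −18.1 with distance measured to any merged site, −6.31 when a starved peak had to cover at least 50% of the site, and −6.46 within fed rank bins, and it ran from −15.3 to −12.7 leaving out 1 library. Where a starved peak had to cover at least 50% of the site, the SD over the starved libraries was 6.75 points. That is above the mean of −6.31 in size, so the sign may not hold in each library there. The number of isolated sites was 1733 at 100 kb, 600 at 200 kb and 486 with distance to any merged site. The share inside protein-coding genes was 35.3% at 100 kb, 36.1% at or above the median score, 38.8% with equal-length lists before merging and 26.3% with distance to any merged site, and stayed below that of the other fed sites in each. The difference in score rank between states turned to −0.61 at 200 kb, −1.92 at or above the median score and −0.15 with equal-length lists before merging, and the difference in width turned to −0.0198 in the last. The causes were not tested. Of the 955 sites, 768 stayed isolated without fed 2 and 357 with equal-length lists before merging. The starved against fed difference in equal-length calls stayed negative under 17 other settings (−0.26 to −0.07 on the log2 scale, and −3.97 points within rank bins). In each of them the sites were chosen by fed peaks, so this too is a description. Same-numbered libraries did not deviate together (r of −0.01, 0.09 and 0.06 over 22131 sites), and with the replicate block the exact p was 0.25 for that difference of −0.16, for the score rank of 0.24 and for the width of 0.20, the smallest that 8 labellings allow. Unknown read depth limits all calls of weak sites.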
